A study of Homo sapiens with 3 samples.

Results

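Folliculin (FLCN), its partners FNIP1 and FNIP2, the RAG GTPases RRAGA, RRAGB, RRAGC and RRAGD, and the transcription factors TFEB, TFE3 and MITF were examined for H3K27ac, the acetylated lysine 27 of histone H3 that marks active promoters and enhancers. These are 10 of 19970 protein-coding genes on chromosomes 1 to 22 and X. FLCN was chosen by measured values, the −log10 q that put its peak among the top gene-end peaks of both H3K27ac lists, so that peak is described with no test and supports nothing further. The other 9 genes were taken for their known link to folliculin. Peaks were read over each RefSeq gene span and within 20 kb of it.

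Peak lists came from A2780 cells, an established line of human ovarian carcinoma, profiled by CUT&Tag. This assay directs a transposase to antibody-bound chromatin and sequences the DNA tagged there. There were 3 libraries with 1 library per group. The BPP library was H3K27ac after treatment with a peptide, BPP, that the series design describes as a competitor for the site where BIN2 is phosphorylated, and the CTR library was H3K27ac in control cells. The IgG library, made with non-specific antibody, stands for background. In the RNA-seq of the series the comparator was a TAT peptide. The treatment of the CTR cells used for CUT&Tag is not given in these sources. No genotype change was named for any group.

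The lists held 17841 BPP, 14836 CTR and 7701 IgG peaks. Read depth was unknown. With 1 library per group there was no replicate check, and BPP was not tested against CTR. Each peak is given with the fold and −log10 q the authors deposited, which serve to describe and rank peaks within their own list, and differences of these values between lists are not read as changes. Absence from a list can mean a signal slightly below the calling threshold. Among 10 markers of ovarian carcinoma or epithelium, MSLN, KRT8 and KRT18 had a peak within 1 kb of a gene end in BPP, and KRT8 and KRT18 in CTR, while PAX8, WT1, MUC16, EPCAM, WFDC2, KRT7 and CDH1 had none in any list. For KRT8 the gene-end peak of highest −log10 q lay at opposite ends of the gene in BPP and CTR. In CTR it lay inside KRT18, whose span overlaps that of KRT8, and no CTR peak was within 1 kb of a listed KRT8 start site. Of 5 blood cell markers CD68 alone had such a peak, in BPP and CTR.

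As background, FLCN forms a complex with FNIP1 or FNIP2 at the lysosome and acts as a GTPase-activating protein for RRAGC and RRAGD. RAG GTPases work as dimers, RRAGA or RRAGB with RRAGC or RRAGD, which bring the kinase complex mTORC1 to the lysosome when amino acids are plentiful. In that state mTORC1 phosphorylates TFEB and TFE3 and keeps them in the cytoplasm. When released, these factors and their relative MITF bind E-box DNA (CACGTG) and switch on genes of lysosomes and autophagy. Inherited loss of FLCN causes Birt-Hogg-Dubé syndrome, with kidney tumours. MITF is best known as the lineage factor of melanocytes.

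Promoter sequences are shown for 4 genes that differ at their start sites: FLCN with a high-ranking peak in both H3K27ac lists, FNIP1 with a peak in both, RRAGB with a peak in CTR, and RRAGC with no peak at its start in any list. CACGTG was searched in 8 genes of the group, and not in RRAGA or RRAGD. Of these 8, FNIP1, RRAGB and RRAGC were also the only ones that held it, so the printed sequences overstate how common it was. Each is the 250 bases before the RefSeq start site (GRCh38.p14), written 5′ to 3′ along the gene, with every CACGTG in capitals.
FLCN (chr17:17237169-17237418, minus strand): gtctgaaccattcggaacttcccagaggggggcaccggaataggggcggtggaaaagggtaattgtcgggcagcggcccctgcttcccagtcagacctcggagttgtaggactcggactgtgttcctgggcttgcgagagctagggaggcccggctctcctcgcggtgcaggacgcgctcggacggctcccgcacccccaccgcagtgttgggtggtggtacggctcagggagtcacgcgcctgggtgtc
FNIP1 (chr5:131797018-131797267, minus strand): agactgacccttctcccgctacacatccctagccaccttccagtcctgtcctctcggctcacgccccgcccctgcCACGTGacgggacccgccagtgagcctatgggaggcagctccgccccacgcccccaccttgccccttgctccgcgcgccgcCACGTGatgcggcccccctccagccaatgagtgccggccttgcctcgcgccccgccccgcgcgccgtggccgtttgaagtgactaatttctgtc
RRAGB (chrX:55717499-55717748, plus strand): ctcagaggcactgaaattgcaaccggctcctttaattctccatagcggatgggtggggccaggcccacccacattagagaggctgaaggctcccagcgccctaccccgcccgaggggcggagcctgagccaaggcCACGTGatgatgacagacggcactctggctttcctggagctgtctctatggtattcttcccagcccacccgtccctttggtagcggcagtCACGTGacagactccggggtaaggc
RRAGC (chr1:38859773-38860022, minus strand): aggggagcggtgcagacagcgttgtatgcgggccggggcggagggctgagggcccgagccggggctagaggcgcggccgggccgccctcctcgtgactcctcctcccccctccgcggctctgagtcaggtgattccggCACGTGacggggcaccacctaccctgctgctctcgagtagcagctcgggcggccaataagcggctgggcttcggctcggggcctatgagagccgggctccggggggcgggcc

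FLCN, FNIP1 and FNIP2 had a gene-end peak, meaning a peak within 1 kb of either end of the gene span, in the BPP list. That was 3 of 10 genes, where 30.6% of all protein-coding genes had one. In CTR the genes with a gene-end peak were FLCN, FNIP1, RRAGB and TFE3, 4 of 10, where 31.2% of all genes had one. FLCN and FNIP1 had one in both lists (23.6% of all genes), FNIP2 in BPP and not CTR (7.03% of all genes), and RRAGB and TFE3 in CTR and not BPP (7.57% of all genes). No gene had one in IgG, where 2.13% of all genes did. RRAGA, RRAGC, RRAGD, TFEB and MITF had a gene-end peak in neither H3K27ac list, as did 61.8% of all genes. With FLCN set aside, the counts were 2 of 9 genes in BPP, 3 in CTR and 1 in both. Since FLCN was picked for its peak in both lists, the count of genes marked in both is read without it, as 1 of 9 (11.1%).

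The promoter table gave strand and start sites for 8 of the 10 genes, all but RRAGA and RRAGD. Every gene-end peak of the group lay at the start of its gene: within 1 kb of a start site, the same 3 genes had a peak in BPP and the same 4 in CTR. Among all genes with a promoter entry, 32.3% had a peak within 1 kb of a start site in BPP, 33.9% in CTR, 25.9% in both, 6.42% in BPP and not CTR, 8.08% in CTR and not BPP, 59.6% in neither and 1.61% in IgG.

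**Figure D1:**
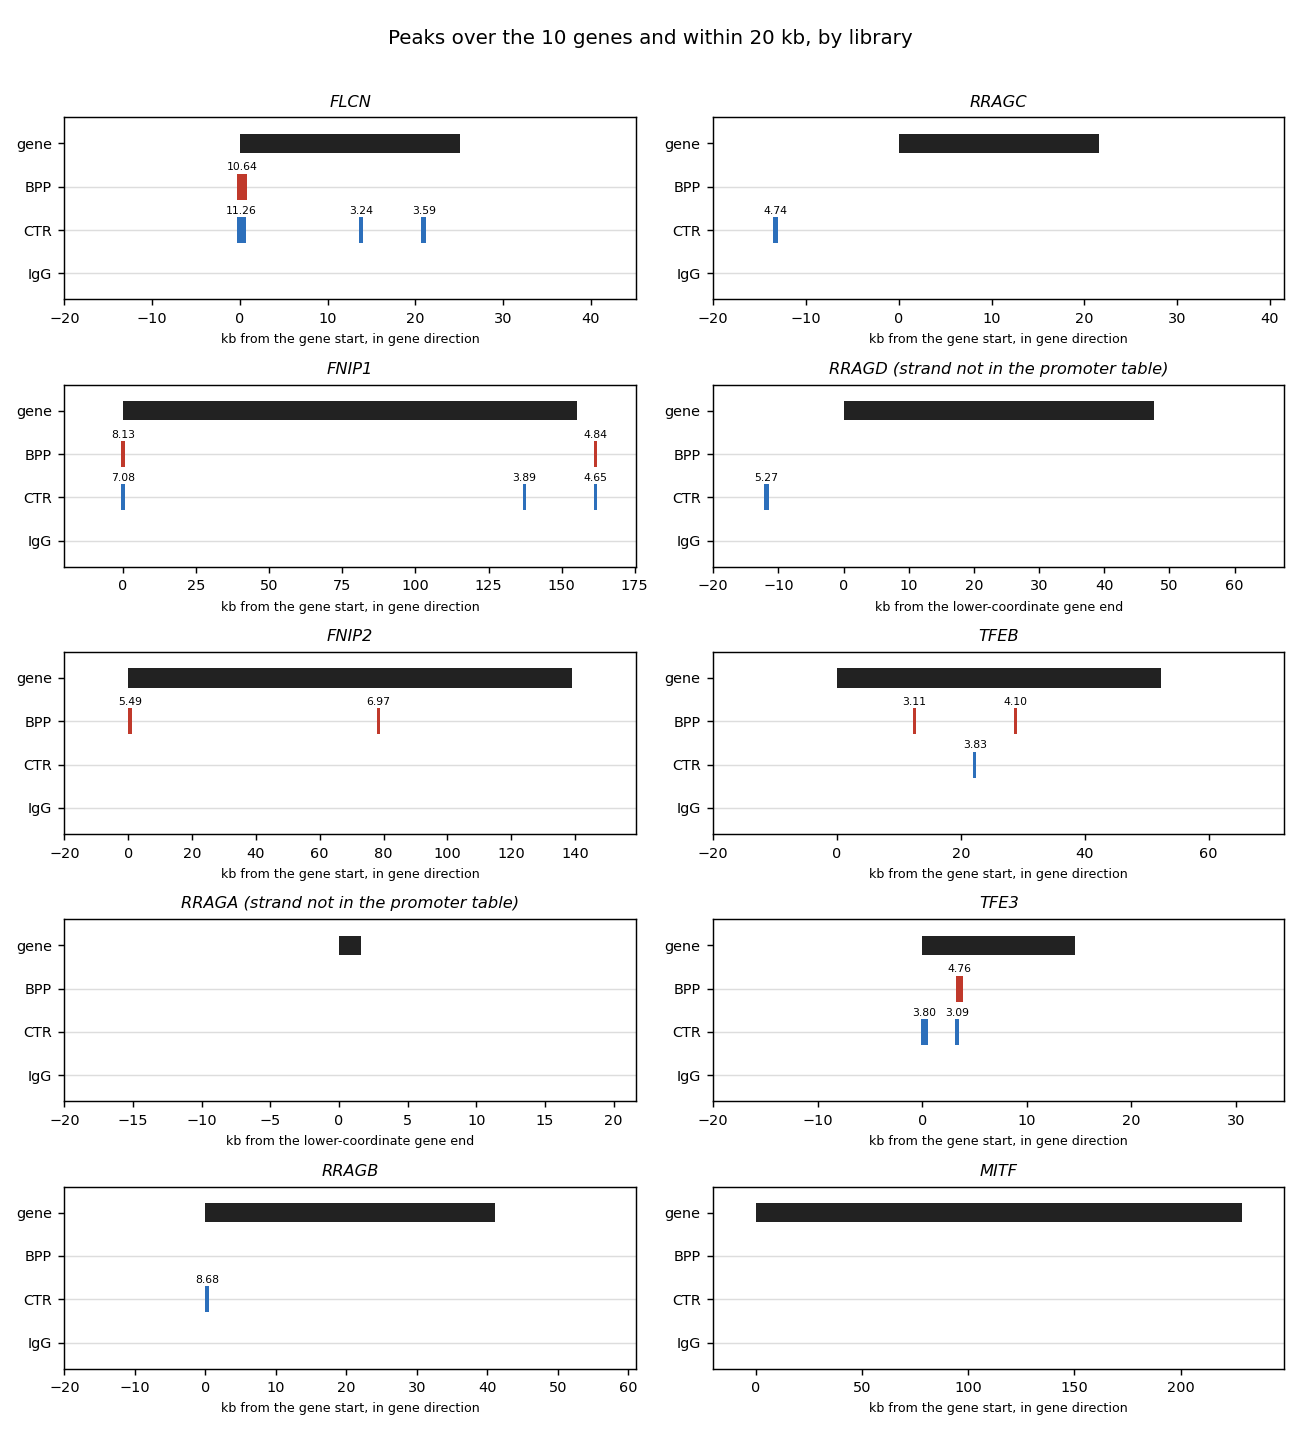
Peaks of the BPP, CTR and IgG lists over each of the 10 genes and within 20 kb, with kb from the gene start on the x axis (from the lower-coordinate end for RRAGA and RRAGD); each panel has its own scale, boxes are peaks widened where needed to be visible, and the number above a box is the authors' fold. FLCN and FNIP1 carry a peak at the start in both H3K27ac lists, FNIP2 in BPP alone, RRAGB and TFE3 in CTR alone, and RRAGA and MITF are empty.

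FLCN had the strongest peak of the group in both H3K27ac lists. In BPP the peak (chromosome 17, 17236537 to 17237674, 1138 bp wide) reached a fold of 10.64 with −log10 q 170.13, and in CTR (chromosome 17, 17236590 to 17237679, 1090 bp) a fold of 11.26 with −log10 q 154.79. The nearest IgG peak was 106 kb away. The 2 peaks shared 1085 bp and covered the start site, with summits 208 bp (BPP) and 153 bp (CTR) upstream of it. By −log10 q the peak ranked 35 of 17841 in BPP and 43 of 14836 in CTR, and by fold it ranked 274 and 212. For each protein-coding gene the gene-end peak of highest −log10 q was taken, and a peak shared by genes was counted once. Among these peaks, 5009 in BPP and 5100 in CTR, that of FLCN was number 4 in each list. The named gene-end peak next above it was that of UFSP2 (−log10 q 237.61 in BPP and 195.39 in CTR), and the peak shared by UFD1 and CDC45 was number 6 in BPP (158.03) and number 5 in CTR (144.37). These values chose FLCN and are given with no test.

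Inside FLCN, CTR had a further pair of weak peaks that BPP lacked. They lay 20.5 kb (chromosome 17, 17216092 to 17216629, fold 3.59, −log10 q 6.60) and 13.5 kb (chromosome 17, 17223356 to 17223658, fold 3.24, −log10 q 4.07) from the start site. Peaks of such rank often had no counterpart: among the CTR peaks within 250 ranks on either side, 50.1% and 36.1% overlapped a BPP peak. For the FLCN peak at the start, that share was 98.3%.

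The genes most like FLCN in rank were taken as the 5 with the smallest summed difference in −log10 q rank over the 2 H3K27ac lists. They were CDC45 and UFD1 (ranks 38 in BPP and 51 in CTR), CDC25C and FAM53C (42 and 60), and UFSP2 (22 and 27). CDC45 and UFD1 share a single peak, as do CDC25C and FAM53C.

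**Figure D2:**
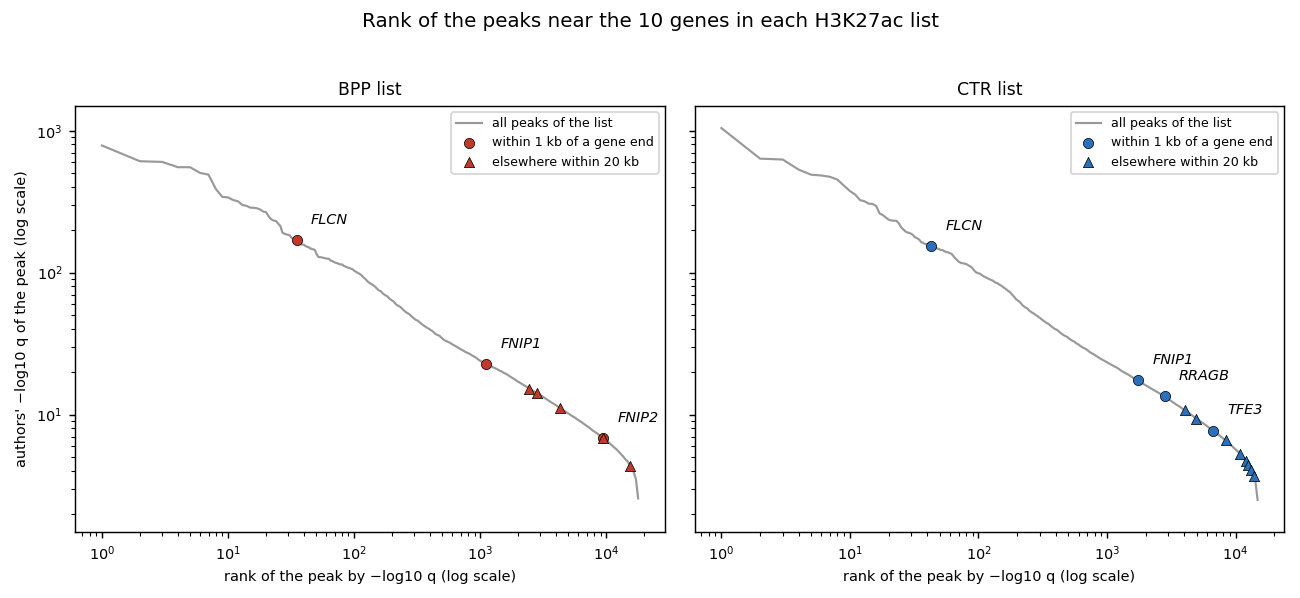
The authors' −log10 q of each peak against its rank in the list, both on log scales, for BPP (left) and CTR (right); the line is the whole list, circles are peaks within 1 kb of a gene end (labelled) and triangles the other peaks within 20 kb of the 10 genes. FLCN stands at ranks 35 and 43, and every other peak of the group is at rank 1109 or beyond.

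FNIP1, which binds FLCN, had a start peak in both H3K27ac lists. In BPP it was 1361 bp wide (chromosome 5, 131796243 to 131797603) with fold 8.13 and −log10 q 22.81, and in CTR 1113 bp wide (chromosome 5, 131796492 to 131797604) with fold 7.08 and −log10 q 17.42. The nearest IgG peak was 216 kb from both. The peaks shared 1112 bp, and their summits lay 520 bp (BPP) and 338 bp (CTR) downstream of the start site. Across all genes with a start-site peak the median summit was 58 bp downstream in BPP and 73 bp in CTR, with upper quartiles of 258 and 226 bp, so both FNIP1 summits lay beyond the upper quartile. The peak ranked 1109 in BPP and 1734 in CTR.

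Beyond the far end of FNIP1, both lists had a peak at RAPGEF6, 5.68 kb (BPP, fold 4.84) and 5.83 kb (CTR, fold 4.65) from FNIP1, within 1 kb of the neighbouring gene. A weak CTR peak inside FNIP1 (chromosome 5, 131659478 to 131659815, fold 3.89, −log10 q 3.70) lay over ACTBP4, an actin pseudogene with near-identical copies elsewhere. How reads of such copies were placed was not tested.

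FNIP2, the paralog of FNIP1, had its peaks in BPP. The start peak (chromosome 4, 158769315 to 158769691, fold 5.49, −log10 q 6.83) began 0.289 kb from the start site and did not reach the 300-base promoter window. A second BPP peak lay deep inside the gene (chromosome 4, 158847211 to 158847660, fold 6.97, −log10 q 11.13), 41.4 kb from the nearer of its 2 listed start sites. CTR had no peak over FNIP2 or within 20 kb, its nearest peak being 45.2 kb away, and the nearest IgG peak was 291 kb from the gene. Of BPP peaks within 250 ranks of these, 42.5% and 76.4% overlapped a CTR peak. Of 6114 genes with a BPP gene-end peak, 5.54% were as far from any CTR peak as FNIP2 or farther.

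Among the RAG GTPases, RRAGB had a peak at its start and the other 3 genes had no peak within 10 kb. The RRAGB peak was in CTR (chromosome X, 55717707 to 55718205, fold 8.68, −log10 q 13.44, rank 2801), with its summit 174 bp downstream of the start site. The nearest BPP peak was 556 kb away and the nearest IgG peak 192 kb. By fold it ranked 602 of 14836, the highest such rank of any CTR peak in the group after FLCN. Of the CTR peaks within 250 ranks by −log10 q, 81.2% overlapped a BPP peak. Of 6222 genes with a CTR gene-end peak, 33 (0.53%) were as far from any BPP peak as RRAGB or farther. This comparison was chosen after its values were seen.

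RRAGA, which encodes the partner interchangeable with RRAGB, is a gene of 1.6 kb and had no peak within 20 kb in any list. The nearest BPP and CTR peaks both began 51.3 kb away (fold 4.66 and 5.73), at the same first base, chromosome 9, 19102307. Of the 974 protein-coding genes no longer than RRAGA, 61.0% had no H3K27ac peak within 20 kb. RRAGC had a CTR peak 13.1 kb upstream (chromosome 1, 38872834 to 38873367, fold 4.74, −log10 q 5.29). It lay within 1 kb of the genes RRAGC-DT, GJA9-MYCBP, MYCBP and GJA9. The nearest BPP peak was 131.0 kb from RRAGC. RRAGD had a CTR peak 11.4 kb from its lower-coordinate end (chromosome 6, 89352383 to 89353174, fold 5.27, −log10 q 9.38), at the end of UBE2J1, and no BPP peak within 74.0 kb. Both peaks lie at ends of neighbouring genes and are not assigned to RRAGC or RRAGD.

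TFE3 had a peak near its start in both H3K27ac lists, but at its start site in CTR alone. The start peak in CTR (chromosome X, 49042825 to 49043509, fold 3.80, −log10 q 7.71) had its summit 11 bp downstream of the start site, and BPP had no peak within 2.66 kb of it. Of CTR peaks within 250 ranks of it, 58.5% overlapped a BPP peak. Downstream, a BPP peak (chromosome X, 49039467 to 49040165, fold 4.76, −log10 q 15.24) overlapped a CTR peak (chromosome X, 49039828 to 49040193, fold 3.09) by 338 bp, with summits 3521 and 3375 bp downstream of the start. The BPP peak ranked 2448 and its CTR counterpart 12585. TFE3 and RRAGB are the 2 genes of the group on chromosome X. Over all 848 protein-coding genes there, 54 had a gene-end peak in BPP and not CTR and 43 in CTR and not BPP.

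TFEB had peaks inside the gene and none at its start sites. In BPP their summits lay 10680 bp (chromosome 6, 41723523 to 41723914, fold 3.11, −log10 q 4.35) and 27024 bp (chromosome 6, 41707228 to 41707518, fold 4.10, −log10 q 6.80) downstream of the nearest of its 3 start sites, and in CTR the summit lay 20490 bp downstream (chromosome 6, 41713851 to 41714137, fold 3.83, −log10 q 4.70). The CTR peak lay 6.33 kb from the nearer BPP peak, so no place in TFEB was marked in both lists. Of peaks within 250 ranks of them, 19.0%, 41.5% and 38.3% overlapped a peak of the other list.

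MITF, the longest gene of the group at 229.0 kb, had no peak of any list. The nearest H3K27ac peaks were 645.0 kb (BPP) and 659.0 kb (CTR) from the gene, and the nearest IgG peak 191.0 kb. Of 19970 protein-coding genes, 3.43% were as far from any H3K27ac peak or farther. An empty gene of this length was not unusual: of 1153 genes at least as long, 49.0% had no H3K27ac peak within 20 kb. TFEC, the remaining member of the family, likewise had no gene-end peak. The melanocyte genes TYR, PMEL, MLANA, DCT and SOX10 had no gene-end peak in any list.

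**Figure D3:**
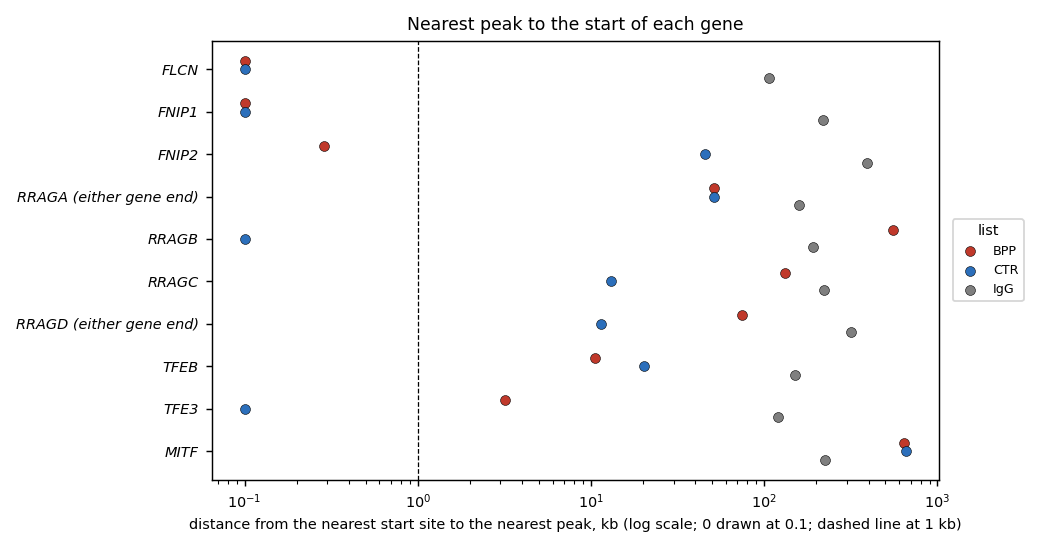
Distance in kb (log scale) from the start site of each gene to the nearest peak of each list; 0 is drawn at 0.1, and for RRAGA and RRAGD either gene end was used. BPP and CTR lie together at FLCN, FNIP1, RRAGA and MITF and apart at RRAGB (BPP 556.0 kb) and FNIP2 (CTR 45.2 kb). They also differ at RRAGC (BPP 131.0 kb, CTR 13.1 kb) and RRAGD (BPP 74.0 kb, CTR 11.4 kb). The same holds for TFEB (BPP 10.5 kb, CTR 20.3 kb) and TFE3 (BPP 3.19 kb, CTR 0 kb). Every IgG peak is over 100 kb away.

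In all, 8 BPP, 12 CTR and no IgG peaks lay over the 10 genes or within 20 kb. At least 1 such peak was found at 5 genes in BPP and 7 in CTR, where 59.8% and 57.1% of all protein-coding genes had one, and at none in IgG, where 24.6% had one. Per Mb of gene span with flanks, the group had 7.10 BPP and 10.6 CTR peaks, and all genes 12.9 and 10.2. Of the 8 BPP peaks 4 overlapped a CTR peak, as did 8928 of all 17841 BPP peaks, and of the 12 CTR peaks 4 overlapped a BPP peak (33.3%, against 59.6% of all CTR peaks). The overlapping places were the starts of FLCN and FNIP1, the peak at RAPGEF6 and the peak inside TFE3. The overlap at the FLCN start was fixed in advance, because FLCN was picked for its peak in both lists. That peak is included in the overlap shares, the counts of genes and the peaks per Mb, so these only describe the group.

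E-box motifs were searched in RefSeq promoter windows of 300 bases, from 250 before to 50 after the start site, on both strands. CACGTG was present at FNIP1, RRAGB and RRAGC, 3 of the 13 windows of the 8 genes, and in 8.34% of all 22131 windows of protein-coding genes. FNIP1 held 2 copies, starting 175 and 94 bases before the start site, and RRAGC held 1 copy, 112 bases before it. RRAGB held 3 copies, at 115 and 25 bases before the start site and 7 bases after it, the last beyond the printed sequence. Only 29 of the 22131 windows (0.131%) held 3 or more. Each copy was part of the longer TCACGTG on either strand, found in 4.44% of all windows. No window of FLCN, TFEB, TFE3, MITF or FNIP2 held CACGTG, and TCATGTG, a motif bound by MITF (2.31% of all windows), occurred once, in the second window of FNIP2.

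The windows of FLCN and FNIP1 were covered by a peak in both H3K27ac lists, those of RRAGB and TFE3 by a CTR peak, and that of RRAGC by none. A CACGTG motif thus stood in windows with a peak in both lists, in CTR alone and in neither. The first windows of MITF and FNIP2 were rich in G and C (70.3% and 79.3%) with 30 and 48 CpG, as were those of FLCN (67.0%, 26 CpG) and FNIP1 (69.7%, 27 CpG). RRAGB had the fewest among the first windows (61.3%, 14 CpG). The median over all windows was 62.3% and 21 CpG.

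The other genes of lysosomal nutrient sensing were read from 7 lists holding 57 genes. A gene-end peak was found at 34 of them in BPP (59.6%), 33 in CTR (57.9%) and 26 in both, with 8 on the BPP side alone and 7 on the CTR side alone, and at 2 in IgG. The shares of all genes were 30.6% in BPP, 31.2% in CTR, 23.6% in both, 7.03% in BPP only, 7.57% in CTR only and 2.13% in IgG. All 5 Ragulator genes, which encode the lysosomal anchor of the RAG dimer, had a BPP peak: LAMTOR3 (fold 6.69 in BPP and 5.17 in CTR) and LAMTOR5 (5.21 and 5.44) in both lists, and LAMTOR1 (fold 2.89), LAMTOR2 (3.05) and LAMTOR4 (4.21) in BPP alone. The LAMTOR1 peak lay over 1 kb from its listed start site.

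Of 7 genes of GATOR1, the GTPase-activating complex for RRAGA and RRAGB, and its anchor KICSTOR, 5 had a peak in both lists and NPRL2 in CTR alone (fold 3.89). NPRL3 had the highest −log10 q of this list in CTR (14.33, fold 6.88), and KICS2 in BPP (12.02, fold 6.15). Of 5 GATOR2 genes, 2 had a peak in both lists, SEH1L (highest −log10 q of the list in CTR, 15.77, but 4.10 in BPP) and SEC13 (highest in BPP, 13.49, and 7.14 in CTR), and WDR59 in BPP alone (fold 4.16). Among 7 amino acid sensors, SESN2, a leucine sensor (fold 4.47), and SLC38A9, an arginine sensor of the lysosomal membrane (fold 5.91), had a peak in BPP alone. SESN1 had the highest −log10 q of that list in CTR (12.52, fold 6.22), and SESN2 in BPP (9.97).

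All 7 genes of mTORC1 and its GTPase switch had a peak within 1 kb of either gene end in at least 1 H3K27ac list. Per list these were 4 genes in BPP and 6 in CTR. Of all protein-coding genes, 61.8% had such a peak in neither list. TSC1, which with TSC2 restrains the mTORC1 activator RHEB, had the highest −log10 q of the list in BPP (23.52, fold 6.98), and RPTOR, the scaffold of mTORC1, in CTR (18.88, fold 7.13). MTOR, the kinase itself (fold 5.79), TSC2 (fold 3.77) and TBC1D7 (fold 3.93, −log10 q 3.11) had a peak in CTR alone and MLST8 in BPP alone (fold 2.49). The MLST8 peak (chromosome 16, 2209575 to 2210074) lay outside the gene, past its higher-coordinate end, and MLST8 had no listed start site. Of 9 genes that regulate TFEB or belong to its family, 6 had a peak in both lists. YWHAE, a 14-3-3 protein that holds phosphorylated TFEB in the cytoplasm, had the highest −log10 q of the list in CTR (47.98, fold 8.83) and in BPP (38.65, fold 7.07), and YWHAZ had a peak in CTR alone (fold 4.04). Of 17 lysosomal and autophagy genes known as TFEB targets, 6 had a peak in both lists, among them ATP6V1H of the lysosomal proton pump, with the highest −log10 q of the list in BPP (13.53, fold 6.48). HEXA had one in BPP alone (fold 5.51), UVRAG (fold 4.07) and ATP6V0D1 (fold 4.65) in CTR alone, and 8 in neither, among them LAMP1 and GPNMB.

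**Figure D4:**
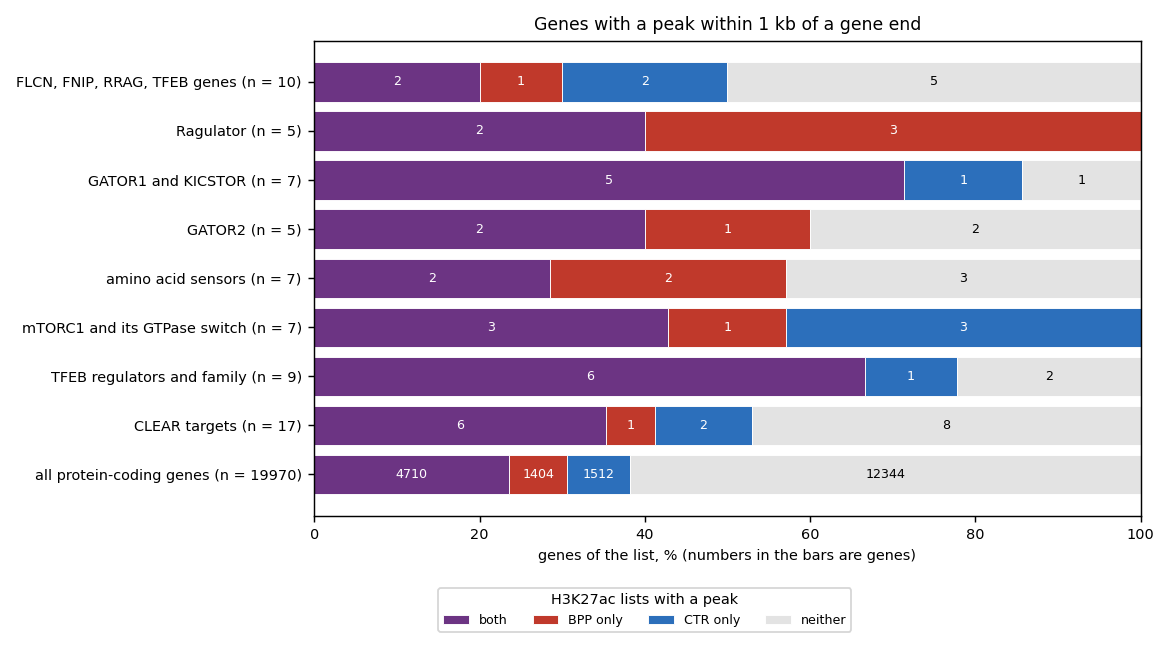
Percent of the genes of each list with a peak within 1 kb of a gene end in both, 1 or neither of the H3K27ac lists (see the key); numbers in the bars are genes. The top bar holds the 10 genes (2 in both, 1 in BPP, 2 in CTR and 5 in neither). The bottom bar holds all protein-coding genes, of which 61.8% have a peak in neither list. The Ragulator and mTORC1 lists have no gene without a peak.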

How the data were processed

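One list per library was deposited by the authors, so libraries were not pooled for calling. The tools named per the submitters' processing notes are deepTools 3.3.0, Bowtie2 2.4.1 and fastp, and the build is hg38 (GRCh38.p13). Which program called peaks, with which settings, and whether IgG was a control there is not given in the sources used here. Each deposited row holds a position, a summit, a score (the whole part of 10 times the −log10 p in all 3 lists), a fold ratio over an undescribed background, and the caller's −log10 p-value and −log10 q-value, as the authors gave them. No −log10 p was below 5, and the number of reads is unknown.

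Peaks of chromosomes 1 to 22 and X entered the analysis. Genes, start sites and promoter sequences came from RefSeq tables of GRCh38.p14, with 1 row per symbol; patch releases share chromosome coordinates. All 10 genes matched, 8 of them in the promoter table, and BMT2 matched as SAMTOR. Overlap means at least 1 bp, and coordinates count from 1. Gaps run from the edge of a peak. Named genes were the 10 genes, the pathway genes with a peak in 1 H3K27ac list, the gene of highest −log10 q in each pathway list, taken within each H3K27ac list, and the 5 genes nearest to FLCN in rank. Some genes that this rule takes are left out of the text. The members and lists were chosen with earlier results of these data known. Python 3.11.15 with numpy 2.4.6, pandas 2.3.3 and matplotlib 3.10.9 was used, and overlaps of simulated peaks were checked with bedtools 2.31.1.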

Additional observations from a re-analysis of the deposited data

How the results depend on the processing

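No paired analysis was possible because each group had 1 library and no test was made. Windows of 500 bp and 2 kb and peaks with −log10 q of 5 or more left each count of gene-end peaks, of the group and of the pathway genes, within 1.5 times its value. So did, for the counts of the group they were run on, windows at start sites (chosen after seeing the data), a flank of 10 kb and both other overlap rules. With peaks of fold 5 or more, TFE3 lost its CTR start peak and the genes marked in CTR only fell to 1, pathway genes with a gene-end peak numbered 15 in BPP, 18 in CTR and 12 in both, and 4 BPP and 4 CTR peaks lay near the group. With the top 5000 peaks of each list, FNIP2 and TFE3 lost their start peaks, leaving 0 genes in BPP only and 1 in CTR only. Pathway genes then numbered 9 in BPP, 15 in CTR and 6 in both, and 5 BPP and 5 CTR peaks lay near the group. These settings keep fewer peaks by construction. A flank of 50 kb gave 13 BPP and 18 CTR peaks. With −log10 q of 5 or more, 7 BPP and 8 CTR peaks lay near the group, against 8 and 12 in the main setting. Without FLCN (also chosen after seeing the data), 1 gene was marked in both lists. FNIP1 and RRAGB kept their status in every setting of window, −log10 q, fold and list length. FLCN did too, but it was picked for a top peak in both lists, so this supports nothing further. Unknown depth limits any statement on a peak found in 1 list.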

Other observations

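Across all protein-coding promoter windows, TCACGTG was present in 6.41% of the 3589 windows covered by a peak in both H3K27ac lists and in 3.84% of the 15833 covered by neither. The median number of CpG was 24 and 16 in the same windows, and its part in the difference was not tested. The shorter CACGTG was present in 9.39% and 7.84%. TCATGTG went the other way, present in 1.17% of the windows covered in both lists and 2.76% of those covered by neither.

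SQSTM1, an autophagy receptor gene among the TFEB targets, had no gene-end peak but had a peak within 1 kb of a listed start site in BPP, CTR and IgG. ITFG2 of KICSTOR counted as marked in both H3K27ac lists, with its BPP peak (chromosome 12, 2858560 to 2858956, fold 3.49) and its CTR peak (chromosome 12, 2812636 to 2812945, fold 5.17) at opposite ends of the gene.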
